A study of Mus musculus with 7 samples.

Results

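The 38 genes described here are autosomal imprinted genes of the mouse, taken as a named list and not by any measured value, from 21627 protein-coding RefSeq genes on the autosomes and X. Each was followed through maps of replication origins in mouse embryonic stem cells (mESCs), within a window of the gene body plus 5 kb on each side, with origins within 1 kb of a gene end counted apart. Positions are on mm10, which is GRCm38. The windows had a median of 33.9 kb, against 27.3 kb for all protein-coding genes, and made up 2559 kb in 33 separate stretches.

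Origins had been mapped by sequencing short nascent strands, the small pieces of new DNA that remain beside a site where replication has just begun. The APH libraries came from mESCs given 0.5 µM aphidicolin, a blocker of replicative DNA polymerases, during 2.5 h. The CDC6 libraries came from mESCs given 1 µg/ml doxycycline during 30 h so that they overexpressed CDC6, which helps to load the replicative helicase. The WT libraries came from untreated mESCs. APH, CDC6 and WT had 2 libraries each, and 1 Input sample was not analysed here. Both APH libraries, both CDC6 libraries and WT 2 came from TetO-CDC6 mESCs, whose CDC6 transgene is switched on by doxycycline, so the APH and WT 2 cells carried it too without the drug. WT 1 came from other mESCs without that label, so cell line and library cannot be told apart in it. Nothing in the labels says that the libraries of a condition were separate cultures, and the p-values below measure only the spread between libraries, which may be technical. DNA libraries show neither the stem cell markers nor the CDC6 level, so neither label could be checked on them.

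Each library had a list of MACS peaks, called against 1 control shared by all 6 libraries, and each condition had 1 list of origins. Libraries held between 71435 and 94747 MACS peaks. The lists held 31653 origins in APH, 31384 in CDC6 and 20178 in WT. Read numbers are not in these files, so their depth is unknown, and precision is bounded by how many peaks were called. A second list deposited for each library was not used for any main value, because every row of the WT origin list was found in the second list labelled APH 1, every row of the APH list in that labelled CDC6 1, and every row of the CDC6 list in that labelled CDC6 2. Fold values are the authors' ratio of a peak over the control, and describe and rank peaks within a library only.

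Imprinted genes are expressed from only the maternal or only the paternal copy, which for some genes holds in certain tissues only. The choice is set by DNA methylation that one germ line lays down at a control region and that is kept on that copy through each cell division. Many imprinted genes lie in clusters that share such a control region, and several clusters hold a long noncoding RNA that silences its neighbours on the same chromosome. In somatic cells the parental copies of imprinted regions have long been known to replicate at different times in S phase. Reads that are not assigned to a parental copy, as here, give the sum of both.

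The promoters below are shown because an origin of all 3 lists overlapped each of them. They are RefSeq sequences of GRCm38.p6 from 250 bases before to 50 bases after a transcription start, read 5′ to 3′ on the gene's strand, with every CG dinucleotide, the site of DNA methylation, in capitals. A total of 8 imprinted genes had such a promoter. Gnas and Mest had more than 1, of which the one richest in CG is given for Gnas and 1 of a largely overlapping pair for Mest. RefSeq gave promoters for 31 of the 38 genes, and none for Cdkn1c, Impact, Ins2, Kcnq1, Peg10, Rtl1 and Sgce.
Dio3, chr12:110278980-110279279, plus strand: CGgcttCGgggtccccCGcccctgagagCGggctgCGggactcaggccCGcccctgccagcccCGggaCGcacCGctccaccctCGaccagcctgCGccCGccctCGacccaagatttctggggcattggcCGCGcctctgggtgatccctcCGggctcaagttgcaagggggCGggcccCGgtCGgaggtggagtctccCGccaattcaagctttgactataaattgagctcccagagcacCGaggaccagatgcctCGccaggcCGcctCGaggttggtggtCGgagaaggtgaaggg
Gnas, chr2:174329756-174330055, plus strand: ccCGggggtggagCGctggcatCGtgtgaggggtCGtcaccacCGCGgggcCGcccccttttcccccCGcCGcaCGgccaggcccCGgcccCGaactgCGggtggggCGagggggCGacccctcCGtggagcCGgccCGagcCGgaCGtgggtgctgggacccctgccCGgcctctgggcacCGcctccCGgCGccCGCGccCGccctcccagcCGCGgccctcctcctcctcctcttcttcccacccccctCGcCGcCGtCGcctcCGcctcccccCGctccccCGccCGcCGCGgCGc
Grb10, chr11:12037371-12037670, minus strand: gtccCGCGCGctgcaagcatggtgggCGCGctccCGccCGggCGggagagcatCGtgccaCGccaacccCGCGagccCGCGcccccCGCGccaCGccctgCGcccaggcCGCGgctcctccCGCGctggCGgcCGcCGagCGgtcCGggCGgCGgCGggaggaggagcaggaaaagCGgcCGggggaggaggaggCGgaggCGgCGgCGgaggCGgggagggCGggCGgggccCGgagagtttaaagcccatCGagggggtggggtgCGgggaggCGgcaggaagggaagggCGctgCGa
Igf2r, chr17:12769657-12769956, minus strand: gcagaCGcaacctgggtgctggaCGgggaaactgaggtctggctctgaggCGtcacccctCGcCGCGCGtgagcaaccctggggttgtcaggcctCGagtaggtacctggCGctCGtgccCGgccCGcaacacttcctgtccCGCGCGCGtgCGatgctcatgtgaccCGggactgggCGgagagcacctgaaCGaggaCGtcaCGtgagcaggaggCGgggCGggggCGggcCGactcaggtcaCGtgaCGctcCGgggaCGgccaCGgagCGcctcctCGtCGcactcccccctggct
Mest, chr6:30737800-30738099, plus strand: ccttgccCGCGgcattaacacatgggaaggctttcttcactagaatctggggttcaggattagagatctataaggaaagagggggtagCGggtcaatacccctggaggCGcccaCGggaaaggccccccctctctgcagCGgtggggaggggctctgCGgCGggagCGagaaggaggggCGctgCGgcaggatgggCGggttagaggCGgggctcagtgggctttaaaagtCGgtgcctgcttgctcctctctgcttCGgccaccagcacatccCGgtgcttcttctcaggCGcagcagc
Peg12, chr7:62464461-62464760, minus strand: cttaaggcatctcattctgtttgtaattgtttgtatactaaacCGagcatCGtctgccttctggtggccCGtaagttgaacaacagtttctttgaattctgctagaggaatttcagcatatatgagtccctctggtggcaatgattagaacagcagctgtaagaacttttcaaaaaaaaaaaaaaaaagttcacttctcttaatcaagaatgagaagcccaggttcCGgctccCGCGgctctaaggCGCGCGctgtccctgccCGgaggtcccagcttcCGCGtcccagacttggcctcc
Phlda2, chr7:143502475-143502774, minus strand: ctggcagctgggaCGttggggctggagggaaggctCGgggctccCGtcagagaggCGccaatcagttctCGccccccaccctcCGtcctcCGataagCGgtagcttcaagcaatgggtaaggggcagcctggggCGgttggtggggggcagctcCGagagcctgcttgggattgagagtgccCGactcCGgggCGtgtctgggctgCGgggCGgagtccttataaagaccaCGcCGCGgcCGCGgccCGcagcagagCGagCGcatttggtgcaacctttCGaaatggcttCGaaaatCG
Ube3a, chr7:59228500-59228799, plus strand: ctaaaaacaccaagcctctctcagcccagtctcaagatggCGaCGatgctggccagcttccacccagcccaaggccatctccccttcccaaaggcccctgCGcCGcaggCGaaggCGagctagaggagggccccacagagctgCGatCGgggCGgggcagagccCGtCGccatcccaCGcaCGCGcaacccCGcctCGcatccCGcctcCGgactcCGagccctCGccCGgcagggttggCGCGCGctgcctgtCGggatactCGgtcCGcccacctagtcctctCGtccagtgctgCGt
These promoters hold from 12 CG dinucleotides in Peg12 to 45 in Grb10. As a contrast, chosen after their values were seen, the next pair holds a promoter with origins in CDC6 and WT but not APH, and a promoter with 20 CG dinucleotides and no peak in any library.
Plagl1, chr10:13090582-13090881, plus strand: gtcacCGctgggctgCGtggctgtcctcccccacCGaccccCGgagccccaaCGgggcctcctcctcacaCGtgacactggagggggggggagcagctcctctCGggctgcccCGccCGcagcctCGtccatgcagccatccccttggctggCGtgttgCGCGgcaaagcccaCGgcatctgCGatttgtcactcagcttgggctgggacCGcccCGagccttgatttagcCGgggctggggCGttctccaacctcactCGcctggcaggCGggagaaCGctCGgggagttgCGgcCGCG
Zim1, chr7:6696383-6696682, minus strand: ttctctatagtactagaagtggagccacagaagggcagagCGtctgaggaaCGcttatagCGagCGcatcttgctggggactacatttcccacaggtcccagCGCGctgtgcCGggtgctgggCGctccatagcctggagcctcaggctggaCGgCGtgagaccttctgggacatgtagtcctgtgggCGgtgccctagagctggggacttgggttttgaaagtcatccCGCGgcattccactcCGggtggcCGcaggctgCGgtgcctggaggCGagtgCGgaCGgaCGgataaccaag

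Most imprinted genes had at least 1 origin in every condition. An origin lay in the window of 29 of 38 imprinted genes in the APH list (76.3%, against 53.6% of all protein-coding genes), 32 in the CDC6 list (84.2%, against 58.5%) and 29 in the WT list (76.3%, against 48.1%). All 3 lists had one in 26 windows (68.4%, against 41.6%), and at least 1 list in 33 (86.8%, against 65.2%). The part of window length in these shares was not tested. An origin lay within 1 kb of a gene end in 18 imprinted genes in APH (47.4%, against 33.3% of all genes), 25 in CDC6 (65.8%, against 40.6%) and 21 in WT (55.3%, against 32.2%). The CDC6 list thus held every gene end that any list held, 25 in all (44.1% of all genes had one in any list), and 16 were in all 3 (42.1%, against 27.2%). Each condition has 1 list, so these counts have no replicate error and no test. The lists also differ in length. Cut by their second score to the 20178 origins of WT, APH and CDC6 had 17 and 21 genes with a gene-end origin, against 21 in WT. Of all genes these were 30.7% and 34.6%, against 32.2%. In windows the cut lists had 27 and 30 genes, against 29 in WT (47.2% and 49.9% of all genes, against 48.1%).

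**Figure D1:**
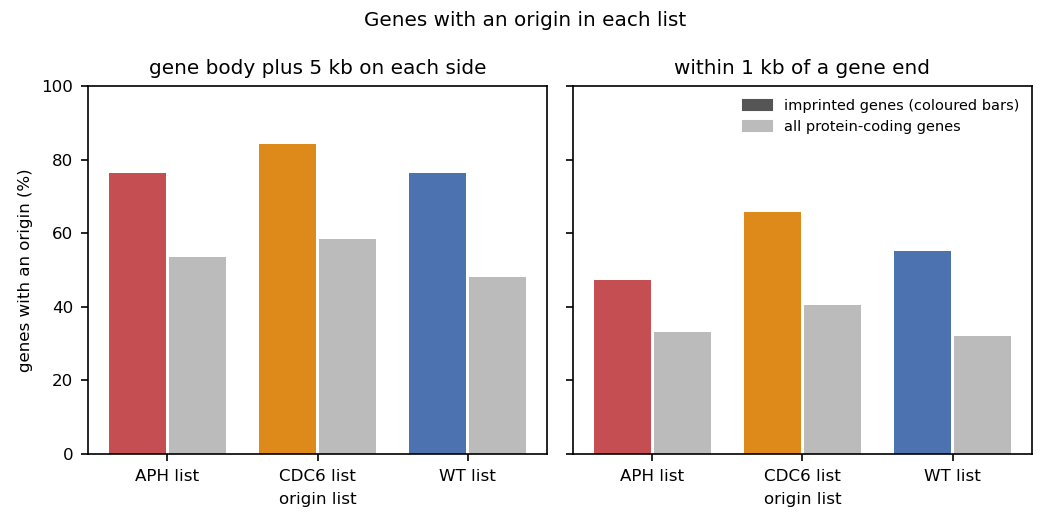
Share of genes (y axis, percent) with an origin in the APH, CDC6 and WT lists, in the gene body plus 5 kb on each side (left) and within 1 kb of a gene end (right), for the 38 imprinted genes (coloured bars) and all 21627 protein-coding genes (grey bars). The coloured bar is the taller of each pair, with 65.8% against 40.6% at gene ends in the CDC6 list.

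The MACS peaks of single libraries showed the same. A peak lay in the window of 32 and 35 imprinted genes in the APH libraries (replicates 1 and 2, against 74.0% and 74.9% of all genes), 34 and 36 in the CDC6 libraries (against 78.1% and 79.2%), and 36 and 32 in the WT libraries (against 82.3% and 74.8%). At gene ends the numbers were 23 and 27 in APH (against 48.3% and 52.4%), 28 and 28 in CDC6 (against 59.4% and 59.3%), and 30 and 25 in WT (against 66.4% and 48.1%). Over all genes WT 1, from the other mESCs, had the most genes with an end peak and WT 2 the fewest. All 6 libraries had a peak in 29 windows (76.3%, against 62.1%) and at the ends of 22 genes (against 39.5%). No library had a peak at the ends of 8 genes, which are Zim1, Snrpn, Ins2, Slc22a2, Ddc, Rtl1, Zrsr1 and Impact (against 27.2% of all genes without one).

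**Figure D2:**
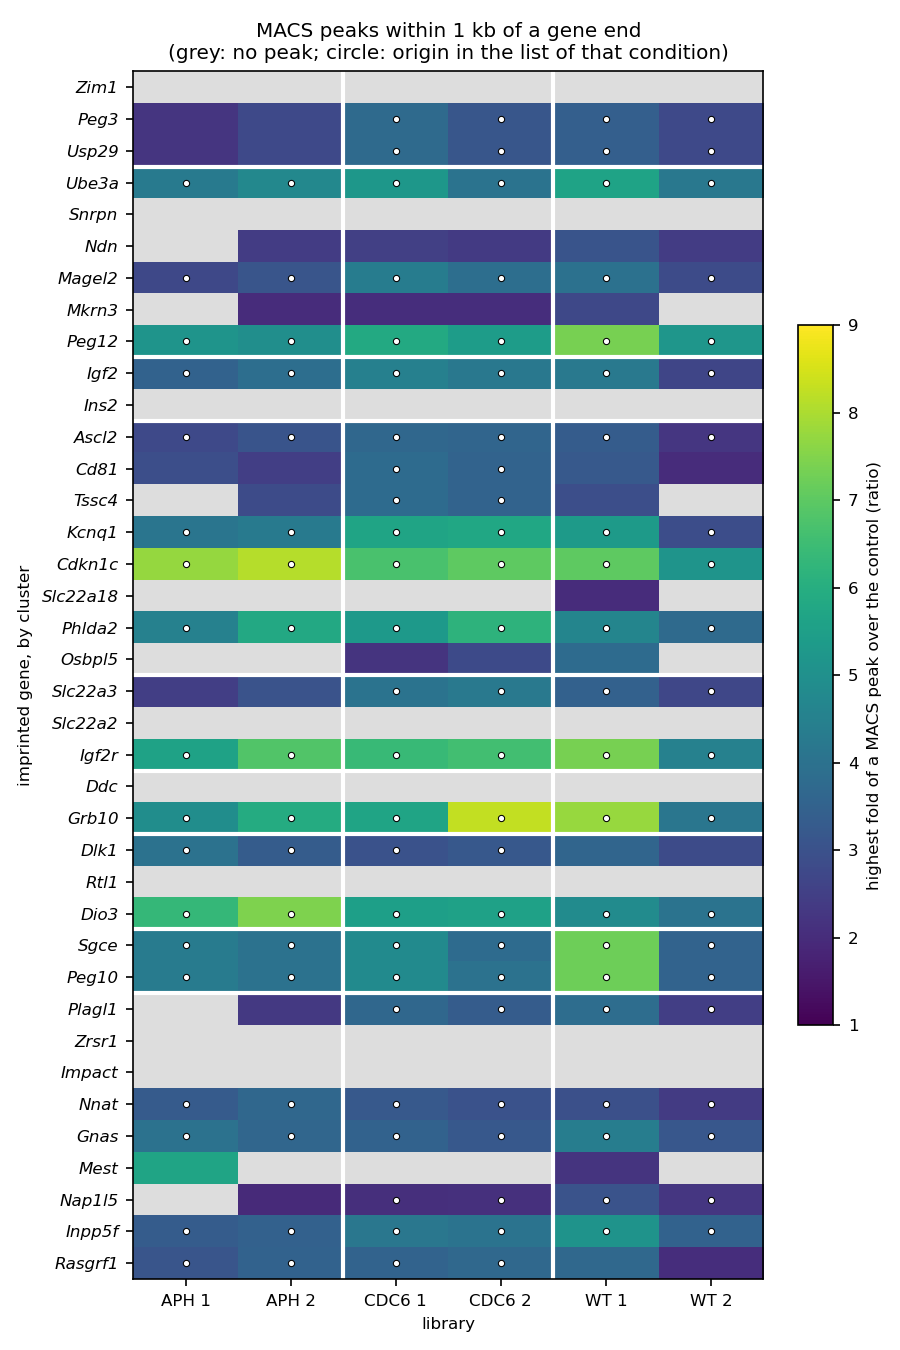
Highest authors' fold over the control among the MACS peaks within 1 kb of a gene end (colour, ratio) for the 38 imprinted genes (rows, grouped by cluster) in the 6 libraries (columns, APH, CDC6, WT). Grey cells had no peak, and circles mark an origin in the list of that condition, so that Plagl1 is grey in APH 1 and has circles in CDC6 and WT alone, while Cdkn1c is above 5 in every library.

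Sorted by the copy known to be expressed, for some genes in certain tissues only, neither side was without origins. Which copy these mESCs express was not measured. Of the 22 genes known for paternal expression, 10 in APH, 14 in CDC6 and 12 in WT had an origin at a gene end. Of the 15 known for maternal expression in at least some tissues, 8, 11 and 9 had one in the same lists. These are 45.5%, 63.6% and 54.5% of the paternal and 53.3%, 73.3% and 60.0% of the maternal genes. All protein-coding genes had 33.3%, 40.6% and 32.2%. In windows the numbers were 15, 18 and 17 of the paternal genes (68.2%, 81.8% and 77.3%). Of the maternal genes they were 13, 13 and 11 (86.7%, 86.7% and 73.3%), against 53.6%, 58.5% and 48.1% of all protein-coding genes. The median windows were 24.1 kb in the paternal and 54.3 kb in the maternal group. Ddc, whose imprint depends on tissue and isoform, was counted in neither group.

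The Kcnq1 cluster on distal chromosome 7 held the gene end with the highest folds in both APH libraries. Cdkn1c, an inhibitor of cyclin-dependent kinases that limits fetal growth, had a region of 3068 bp at its end (chr7:143458926-143461993) in all 3 lists. Its folds were 7.72 and 8.10 in APH, 6.70 and 7.00 in CDC6, and 7.03 and 5.15 in WT. In each library it ranked in the 98.3rd percentile of peaks or above by q-value. A second Cdkn1c region of 981 bp, further out, was also in all 3 lists. Phlda2, which restrains placental growth, had an origin of all 3 lists over its promoter, with folds of 4.51 and 5.84 in APH, 5.29 and 6.17 in CDC6, and 4.65 and 3.77 in WT. Because its window overlaps that of Slc22a18, a transporter gene, the same 2469 bp region counts in both windows. Slc22a18 had a peak at its own ends in WT 1 alone, of fold 2.03, and no origin there.

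Kcnq1, a potassium channel gene of 320 kb whose intron gives rise to the silencing RNA Kcnq1ot1, had origins spread along its length. Its window held 8 origins in APH, 8 in CDC6 and 4 in WT, and 13 and 12 MACS peaks in the APH libraries, 20 and 24 in CDC6, and 26 and 11 in WT. The WT libraries held the highest and the lowest number. At its lower-coordinate end an origin was in all 3 lists, with folds of 4.12 and 4.31 in APH, 5.68 and 5.77 in CDC6, and 5.35 and 2.89 in WT. A region at chr7:143295537-143296153 was in all 3 lists too, and lies just inside the start of Kcnq1ot1. Counted from that start, the nearest origin was 442 bases into the RNA in APH, 417 in CDC6 and 395 in WT. The folds there were lower, 2.72 and 2.81 in APH, 2.78 and 2.70 in CDC6, and 3.23 and 2.38 in WT. Among the regions inside Kcnq1, chr7:143329171-143330243 had the highest fold, 5.12 in CDC6 1, and was in all 3 lists.

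Ascl2, a transcription factor of the placental trophoblast, had 2 origins at its ends in APH, 2 in CDC6 and 1 in WT. Its highest folds were 2.75 and 3.07 in APH, 3.66 and 3.61 in CDC6, and 3.32 and 2.27 in WT. Cd81, a tetraspanin of the cell surface, and its neighbour Tssc4 had an origin at a gene end in CDC6 alone. The Cd81 promoter region (chr7:143052595-143053655) nevertheless had a MACS peak in every library, of fold 2.91 and 2.47 in APH, 2.68 and 2.97 in CDC6, and 3.24 and 2.03 in WT. The Tssc4 region (chr7:143068954-143069916) had none in APH 1 or WT 2, with 2.83 in APH 2, 3.80 and 3.56 in CDC6, and 2.93 in WT 1. It lies within 5 kb of Cd81 and is counted for both. Osbpl5, of the oxysterol-binding protein family, had no origin at its ends, and its 1 origin region, in APH and CDC6, covered an internal promoter.

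In the Prader-Willi and Angelman region of chromosome 7 the gene ends differed widely. Ube3a, a ubiquitin ligase expressed from the maternal copy in neurons, had an origin of all 3 lists over its promoter, with folds of 4.26 and 4.73 in APH, 5.23 and 4.05 in CDC6, and 5.63 and 4.21 in WT. Peg12, an intronless gene, had folds of 5.13 and 4.95 in APH, 5.86 and 5.43 in CDC6, and 7.35 and 5.19 in WT. Its region ranked in the 92.0th percentile or above in every library, although its promoter has only 12 CG dinucleotides. Magel2, of the MAGE family, had an origin in all 3 lists, with folds of 2.72 and 3.12 in APH, 4.36 and 3.89 in CDC6, and 3.97 and 2.82 in WT. Ndn, or necdin, another MAGE gene, had no origin in any list. It had no end peak in APH 1, 2.43 in APH 2, 2.51 and 2.35 in CDC6, and 3.09 and 2.42 in WT. Mkrn3, a ubiquitin ligase known for its part in the timing of puberty, had none in APH 1 or WT 2, 2.03 in APH 2, 2.06 and 2.05 in CDC6, and 2.74 in WT 1, and no origin.

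Snrpn, which encodes a spliceosomal protein and in RefSeq spans 468 kb, had no peak at its outer ends but many origins inside. Its window held 8 origins in APH, 8 in CDC6 and 4 in WT, and 17 and 15 MACS peaks in APH, 12 and 19 in CDC6, and 11 and 17 in WT, so the groups overlapped. A wide region 287 kb downstream of its outermost start (chr7:60161252-60164299, 3048 bp) was in all 3 lists. It had the highest fold of the Snrpn regions in both CDC6 libraries and WT 2, while in WT 1 chr7:60003788-60004948 was higher, at 5.49. In both APH libraries its peak also overlapped the region chr7:60155375-60156177. Its folds of 5.53 and 7.93 in APH, 9.43 and 7.09 in CDC6, and 4.33 and 5.06 in WT placed it in the 93.3rd percentile or above in every library. A further region of all 3 lists lay beside the start at chr7:60005150-60005449 (the promoter's coordinates), with the nearest origin 647 bases inside in APH, 252 in CDC6 and 651 in WT. No list had an origin over any of the 4 Snrpn promoters in RefSeq, which hold 2 to 7 CG dinucleotides each. Of its 11 origin regions 5 were in a single stress list, 3 in APH and 2 in CDC6. The 502 bp region in APH alone had MACS peaks in APH 1, APH 2 and CDC6 2 and in neither WT library. A 556 bp region in CDC6 alone had no WT peak either. The others, of 516 and 708 bp in APH and 476 bp in CDC6, had WT 2 peaks of fold 3.27, 3.17 and 3.08. The 708 bp region also had a WT 1 peak, of fold 2.25.

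**Figure D3:**
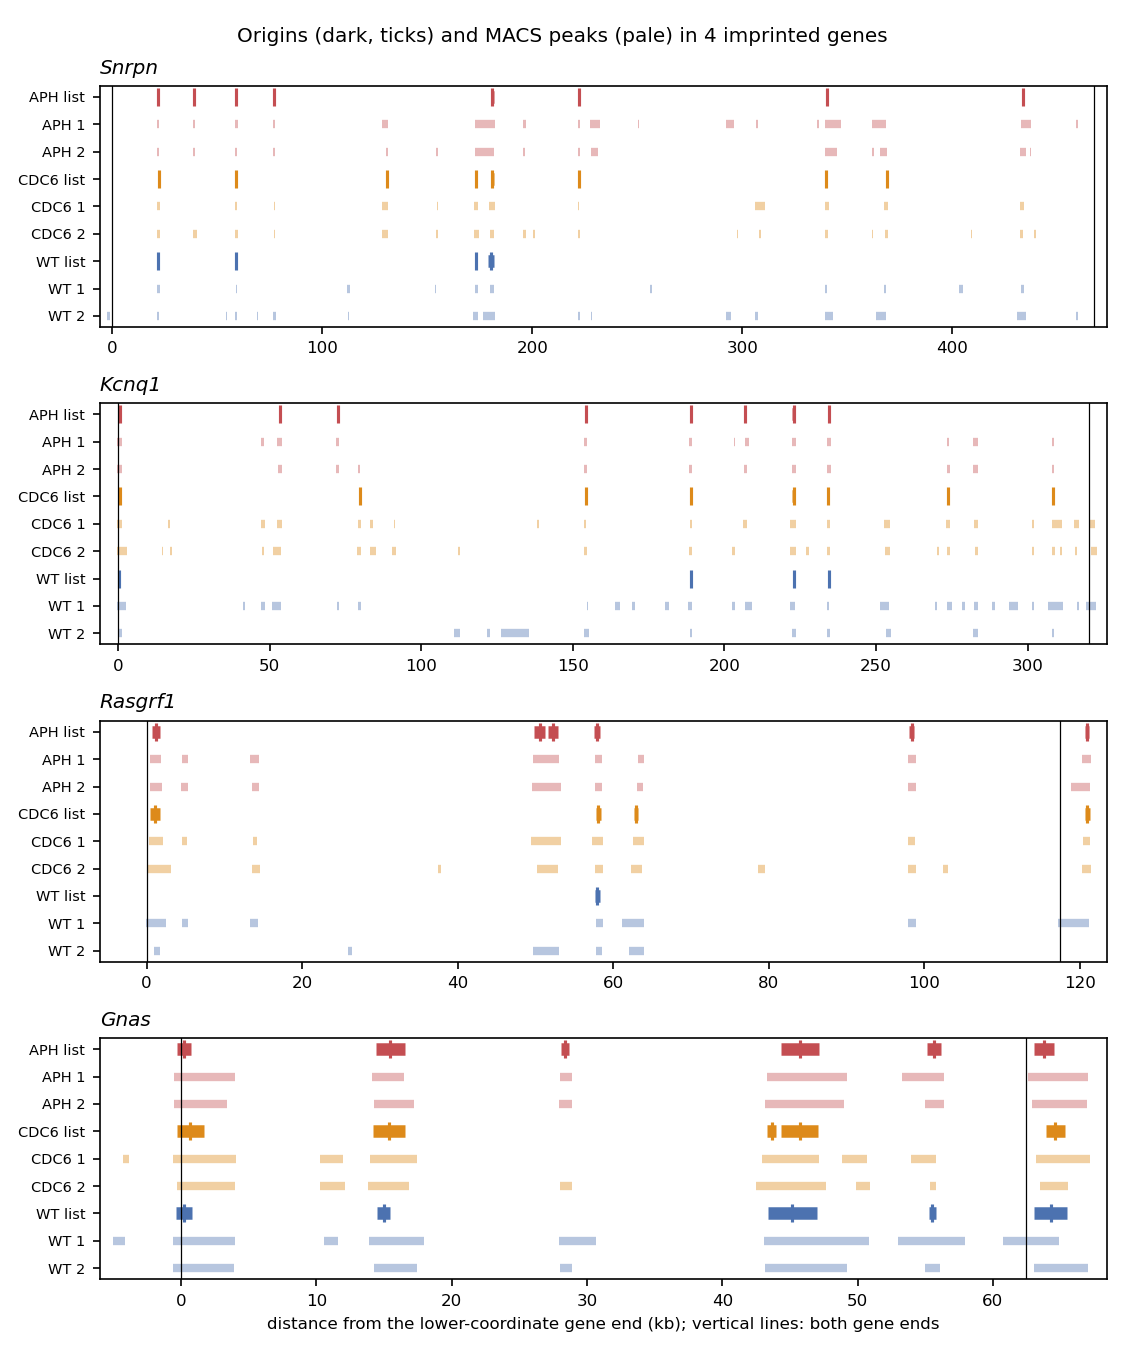
Origins of the 3 lists (dark boxes with a tick) and MACS peaks of the 6 libraries (pale boxes) along Snrpn, Kcnq1, Rasgrf1 and Gnas, by distance from the lower-coordinate gene end (x axis, kb), with both gene ends as vertical lines. Snrpn has 8 APH, 8 CDC6 and 4 WT origins, all inside the gene, while Gnas has origins of every list at its lower-coordinate end.

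In the Peg3 cluster 1 region served a gene pair. Peg3, which encodes a zinc finger protein, and Usp29, a deubiquitinase gene, start head to head, and the 1023 bp region at chr7:6729334-6730356 was in the CDC6 and WT lists but not in the APH list. Its folds were 2.24 and 2.75 in APH, 3.78 and 3.14 in CDC6, and 3.43 and 2.75 in WT, so both APH libraries had a MACS peak without an origin in their list. In APH 1 that peak ranked in the 16.1st percentile of its library, and in the others between the 62.3rd and the 86.7th. Usp29 had 2 further regions inside, 1 in APH and CDC6 and 1 in CDC6 alone. Zim1, the maternally expressed zinc finger gene beside Peg3, had 1 MACS peak in the window in APH 1, of fold 1.93, and none in the other libraries.

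Igf2 encodes a fetal growth factor. Its 26.1 kb window held 7 origins in APH, 2 in CDC6 and 4 in WT, in 8 regions. At the gene ends its highest folds were 3.52 and 3.89 in APH, 4.49 and 4.21 in CDC6, and 4.23 and 2.66 in WT. MACS peaks there were broad, so that 1 peak of fold 3.89 in CDC6 1 covered 5 of these regions, although only 1 of the 5 was in the CDC6 list. The 7 APH origins therefore lay in 4 MACS peaks of each APH library, against 3 in each CDC6 library and 2 and 5 in the WT libraries. Ins2, an insulin gene next to it, was the only imprinted gene with no MACS peak in its window in any library, where 10.1% of all genes had none.

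Igf2r, the receptor that clears IGF2 from the cell surface, also had a gene end of high rank. The 1574 bp region over its promoter was in all 3 lists, with folds of 5.60 and 6.84 in APH, 6.38 and 6.59 in CDC6, and 7.37 and 4.52 in WT, and ranked in the 96.3rd percentile or above. Slc22a3, an organic cation transporter gene of the same cluster, had an origin at its promoter in CDC6 and WT but not APH. Its folds were 2.47 and 3.04 in APH, 4.06 and 4.24 in CDC6, and 3.49 and 2.69 in WT. Inside Slc22a3 the APH list had 3 origins, against 0 in CDC6 and 1 in WT. Slc22a2, the neighbouring transporter gene, had 1 origin, in APH alone and 23.7 kb from its start, with MACS peaks of fold 5.11 and 3.88 in APH, none in CDC6, and 3.38 in WT 1 alone.

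Grb10, an adaptor that dampens insulin receptor signalling, had an origin of all 3 lists over its promoter with 45 CG dinucleotides. The folds were 4.93 and 5.93 in APH, 5.66 and 8.26 in CDC6, and 7.77 and 4.14 in WT. A second region of all 3 lists lay 11.2 kb inside, close to a further Grb10 start with 9 CG dinucleotides. Ddc, the dopa decarboxylase gene next to it, had no peak at its ends in any library, but 2 origins in its window in APH, 3 in CDC6 and 2 in WT.

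In the Dlk1 cluster on chromosome 12 the outer genes differed from each other. Dio3, which inactivates thyroid hormone, had an origin of all 3 lists over its promoter, with folds of 6.33 and 7.46 in APH, 5.50 and 5.57 in CDC6, and 4.86 and 4.05 in WT, and ranks from the 95.2nd to the 98.6th percentile. Dlk1, a transmembrane protein related to the Notch ligands, had an origin near its start in APH and CDC6 and none in its window in WT. That region had a MACS peak in every library, of fold 3.36 and 3.02 in APH, 3.0 and 3.19 in CDC6, and 3.62 and 2.34 in WT. A second Dlk1 region, near the other end, was in APH alone, with folds of 4.02 and 3.33 in APH, 2.51 and 2.57 in CDC6, and 3.62 and 2.82 in WT. Rtl1, derived from a retrotransposon, had 1 region of all 3 lists and 1 of CDC6 alone, both inside the RefSeq gene.

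Peg10, another gene derived from a retrotransposon and needed for the placenta, and Sgce, which encodes a sarcoglycan, start close together and share a 3061 bp region of all 3 lists. Its folds were 4.34 and 4.01 in APH, 4.82 and 3.80 in CDC6, and 7.24 and 3.54 in WT. At the other end of Peg10 a region was in APH and CDC6, with a MACS peak in all 6 libraries.

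Among the imprinted genes outside these clusters, Gnas had the most shared regions. It encodes the stimulatory G protein alpha subunit and several overlapping transcripts of different imprint, and 4 of its 6 regions were in all 3 lists. The widest, of 3817 bp (chr2:174327626-174331442), overlapped 3 of its promoters, 2 of them in the CDC6 and WT lists alone, with folds of 6.10 and 6.74 in APH, 6.13 and 6.27 in CDC6, and 5.65 and 4.03 in WT. Its end peaks had highest folds of 4.00 and 3.65 in APH, 3.53 and 3.21 in CDC6, and 4.38 and 3.17 in WT. Mest, of the hydrolase fold family, had no origin at its outer ends. Its origin of all 3 lists (chr6:30737412-30740218) covered its second promoter, with folds of 5.66 and 5.85 in APH, 5.79 and 5.80 in CDC6, and 4.82 and 5.43 in WT.

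Nnat and Inpp5f also had gene-end origins in all 3 lists. Nnat, a small membrane protein gene in an intron of Blcap, had folds of 3.30 and 3.66 in APH, 3.22 and 3.02 in CDC6, and 2.96 and 2.39 in WT. Inpp5f, a phosphoinositide phosphatase gene, had 3.32 and 3.47 in APH, 4.16 and 4.04 in CDC6, and 5.10 and 3.52 in WT. Both had a MACS peak in every library.

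Plagl1, Nap1l5 and Rasgrf1 were the genes outside the clusters whose lists disagreed at the gene end. Plagl1, a zinc finger transcription factor gene, had its origin in CDC6 and WT, with no peak in APH 1, 2.32 in APH 2, 3.66 and 3.33 in CDC6, and 3.86 and 2.48 in WT. Nap1l5, a nucleosome assembly protein-like retrogene in an intron of Herc3, had its origin in the same lists. It had no peak in APH 1, 1.95 in APH 2, 2.08 and 2.11 in CDC6, and 3.04 and 2.26 in WT. The WT 1 peak ranked in the 73.7th percentile, and the others between the 4.54th and the 46.0th. Rasgrf1, an activator of Ras, had its gene-end origin in APH and CDC6, though a MACS peak was present in every library, of fold 3.12 and 3.53 in APH, 3.56 and 3.71 in CDC6, and 3.69 and 2.06 in WT. In WT 2 that peak ranked in the 4.09th percentile. The window of Rasgrf1 held 6 origins in APH, 4 in CDC6 and 1 in WT. Its MACS peaks numbered 8 and 8 in APH, 8 and 10 in CDC6, and 7 and 5 in WT. Impact, a regulator of translation on chromosome 18, had 2 regions inside and none at its ends. Zrsr1, a splicing factor retrogene in an intron of Commd1, had no origin, and its MACS peaks were 1 in CDC6 2 and 1 in WT 1, with 0 in both APH libraries, CDC6 1 and WT 2.

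The lists were then set against each other gene by gene to see where a condition gained or lacked an origin. At gene ends, 2 imprinted genes had an APH but no WT origin (Dlk1 and Rasgrf1), where 5.24% of all genes did, and 5 had a WT but no APH origin (Nap1l5, Peg3, Plagl1, Slc22a3 and Usp29), where 4.10% did. A CDC6 but no WT origin was seen in 4 (Cd81, Dlk1, Rasgrf1 and Tssc4, against 10.4% of all genes), and a WT but no CDC6 origin in 0 (against 1.95%). An APH but no CDC6 origin was seen in 0 (against 2.40%), and a CDC6 but no APH origin in 7 (Cd81 and Tssc4 beside the 5 that WT had and APH lacked, against 9.70%). Peg3 and Usp29 share their region, so the 5 genes stand for 4 regions. The APH and CDC6 lists are longer than the WT list, and presence in the lists was not presence of a peak. Of the 4 genes with a CDC6 but no WT origin, Cd81, Dlk1 and Rasgrf1 had a MACS peak at the gene end in both WT libraries, and Tssc4 in 1. Of the 5 that APH lacked, Peg3, Usp29 and Slc22a3 had a peak in both APH libraries, and Plagl1 and Nap1l5 in APH 2 alone.

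Over the whole windows the differences were as few. An APH but no WT origin was found in 3 genes (Dlk1, Osbpl5 and Slc22a2, against 10.2% of all genes) and a WT but no APH origin in 3 (Nap1l5, Peg3 and Plagl1, against 4.74%). A CDC6 but no WT origin was found in 3 (Dlk1, Osbpl5 and Tssc4, against 13.9%) and a WT but no CDC6 origin in 0 (against 3.42%). Between the stress lists, 1 gene had an APH but no CDC6 origin (Slc22a2, against 5.00%) and 4 a CDC6 but no APH origin (Nap1l5, Peg3, Plagl1 and Tssc4, against 9.97%). Several of these shares are of the size of the background, and each rests on single regions.

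Merged over the 3 lists, the windows held 94 separate origin regions, from 72 APH, 68 CDC6 and 47 WT origins. The share in all 3 lists was 31 of 94 (33.0%, against 25.5% of all 46639 regions of the genome). APH alone held 19 (20.2%, against 19.3%), CDC6 alone 14 (14.9%, against 20.1%), and both without WT 15 (16.0%, against 17.6%). The classes with WT were 6 in CDC6 and WT (6.38%, against 3.86%), 5 in APH and WT (5.32%, against 5.25%) and 4 in WT alone (4.26%, against 8.30%). Where they lay differed by class. Of the 31 shared regions 16 were at a gene end, against 1 of the 19 of APH alone and 2 of the 14 of CDC6 alone. Of the 25 gene-end placements with known strand, 20 were nearer the 5′ end of the gene, with the region shared by Peg3 and Usp29 counted for each. The places of all regions of the genome were not counted. Whether these places are particular to imprinted genes is thus not known. Shared regions had a median width of 1560 bp, and those of APH alone and CDC6 alone 579 and 622.5 bp. A shared region is the union of overlapping origins, which widens it by construction. The origins of the APH, CDC6 and WT lists had median widths of 670, 737 and 720 bp. A wider region also meets a gene end or a peak more readily, and the part of width in these class differences was not tested.

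All 31 shared regions had MACS peaks in all 6 libraries. Among the 19 regions of APH alone, MACS peaks of other conditions were common, with 13 and 14 in the CDC6 libraries and 14 and 10 in the WT libraries. Among the 14 of CDC6 alone, 6 and 10 had one in the APH libraries and 10 and 6 in the WT libraries. A region listed in 1 condition thus often had a MACS peak in the others. The same counts over all regions of the genome were not made, so this describes these windows only.

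Promoters of imprinted genes were then compared by their CG content, since origins in mouse cells are known to gather at CpG islands. The promoters set beside them are those of 26794 genes and take in noncoding RNA genes. The imprinted genes are all protein-coding, and the part of this difference in the shares was not tested. An origin overlapped 14 of the 46 promoters in APH (30.4%, against 20.8% of all 32619 promoters), 20 in CDC6 (43.5%, against 25.8%) and 17 in WT (37.0%, against 19.7%). The promoters of imprinted genes were richer in CG, with a median of 15.5 dinucleotides in 300 bases, against 7 for all. Among promoters with 20 or more, 8, 12 and 10 of 16 had an origin in APH, CDC6 and WT, near the 57.8%, 69.8% and 56.4% of all such promoters. Among those with 10 to 19, 5, 6 and 6 of 15 had one, against 22.1%, 30.8% and 21.0%. Among those with 5 to 9, 1, 2 and 1 of 8 had one, against 5.53%, 6.61% and 4.10%. With 0 to 4 CG, none of the 7 had one, against 1.52%, 1.74% and 0.944%. In the CG-rich group the imprinted promoters thus stood close to the rest, and the promoters of 1 gene often share a region, so the groups are small.

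**Figure D4:**
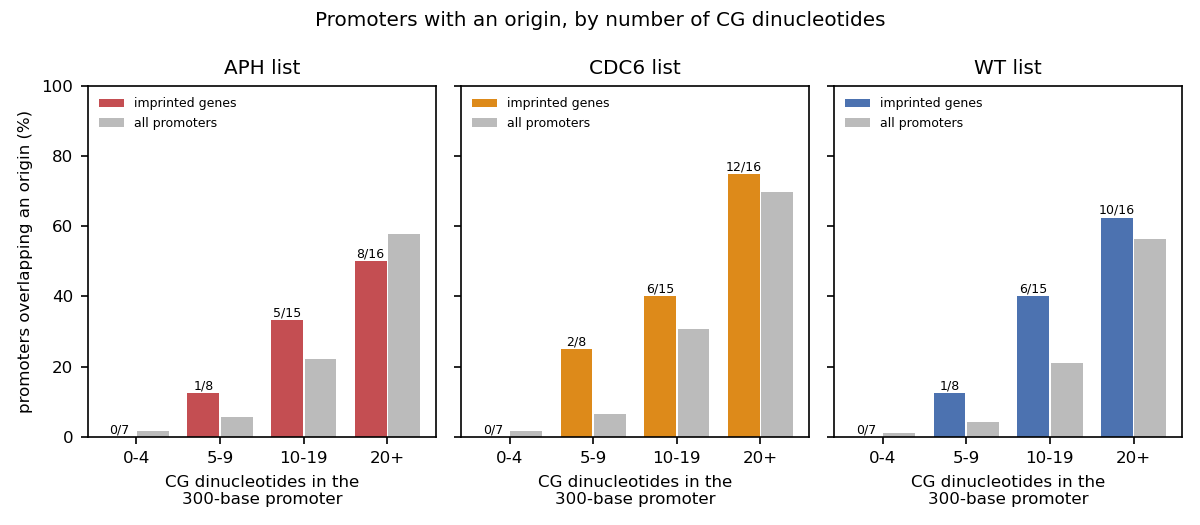
Share of 300-base RefSeq promoters overlapped by an origin (y axis, percent) by their number of CG dinucleotides (x axis), for imprinted genes (coloured, with counts above the bars) and all promoters (grey), in the APH, CDC6 and WT lists. In both groups the share is higher with more CG. In the CDC6 list it goes from 0 of 7 imprinted promoters with 0 to 4 up to 12 of 16 with 20 or more. The grey bars take in promoters of noncoding RNA genes.

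Distances gave the same comparison, again beside promoters that take in noncoding RNA genes. The nearest origin lay on or within 1 kb of the start of 23 of 46 promoters in APH (50.0%, against 25.0%), 28 in CDC6 (60.9%, against 30.3%) and 23 in WT (50.0%, against 24.1%). The median distance was 1.05 kb in APH, 0.206 kb in CDC6 and 0.86 kb in WT, against 15.9, 12.9 and 22.7 kb for all promoters. The stretch of 4 runs of at least 3 G with loops of 1 to 7 bases between them, on either strand, is a letter pattern that can form a G-quadruplex. It was found in 12 of the 46 promoters (26.1%, against 18.7%), among them those of Gnas, Grb10 and Phlda2 printed above, and is a description of the letters only.

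To compare the conditions with an error, the number of MACS peaks in each gene window was scaled to the mean library total and tested over 15512 genes as log2(number + 1) with limma, in which a difference understates the change of genes with few peaks. The filter of a mean of at least 1 peak kept 33 imprinted genes, and Zim1, Mkrn3, Ins2, Zrsr1 and Nap1l5 were not tested. No gene of any kind passed an adjusted p of 0.05 in APH against WT, CDC6 against WT or APH against CDC6 (0.0% called in each). At an unadjusted p under 0.05, limma gave 1231 genes for APH against WT (7.94%), 1381 for CDC6 against WT (8.90%) and 1554 for APH against CDC6 (10.0%), and 5, 2 and 4 imprinted genes among them. For APH against WT, data of the same size were simulated as Poisson numbers, with changes placed only in genes with a mean of at least 2 peaks. Of these, 14 of 100 with a 4-fold and 0 of 100 with a 2-fold change were recovered, so changes of this size could be missed. The simulated libraries lacked any further spread between real libraries, and a filter at a mean of 2 peaks keeps only 24 imprinted genes. The recovery in these data and in genes with fewer peaks is thus not known. Without WT 1 limma called 0, 270 and 102 genes in the same order, without WT 2 183, 1 and 215, and no imprinted gene in any of these fits. The comparisons share libraries, and each difference is given for itself.

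The median log2 difference of the 33 imprinted genes was 0.13 for APH minus WT, against 0.04 for all genes tested, 0.12 for CDC6 minus WT, against 0.12, and -0.07 for APH minus CDC6, against -0.14. Of the 33, 22 were higher and 11 lower in APH than in WT (66.7% higher, against 51.0% of all genes tested). In CDC6 against WT 22 were higher and 11 lower (66.7%, against 65.3%). In APH against CDC6 15 were higher and 18 lower (45.5%, against 44.9%). Scaling alone moved genes off 0, since Dio3, with 1 peak in every library, was at 0.13 for APH minus WT. Without scaling the medians were 0, 0 and -0.14 in the same order, against -0.17, 0 and -0.21 for all genes tested. Of the 33, 13, 17 and 9 were then higher, so these medians and counts are largely of the size of the scaling. Without WT 2 the median for APH minus WT was -0.05 over 32 genes, with 14 of them higher. By kilobases covered it was -0.15, with 10 of 33 higher, against -0.24 for all genes. By the second lists as labelled it was 0.01, with 16 of 30 higher, against 0.20 for all genes. In the other alternatives with scaling the median stayed above 0. The direction thus rests on WT 2, on scaling and on the measure of peaks.

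**Figure D5:**
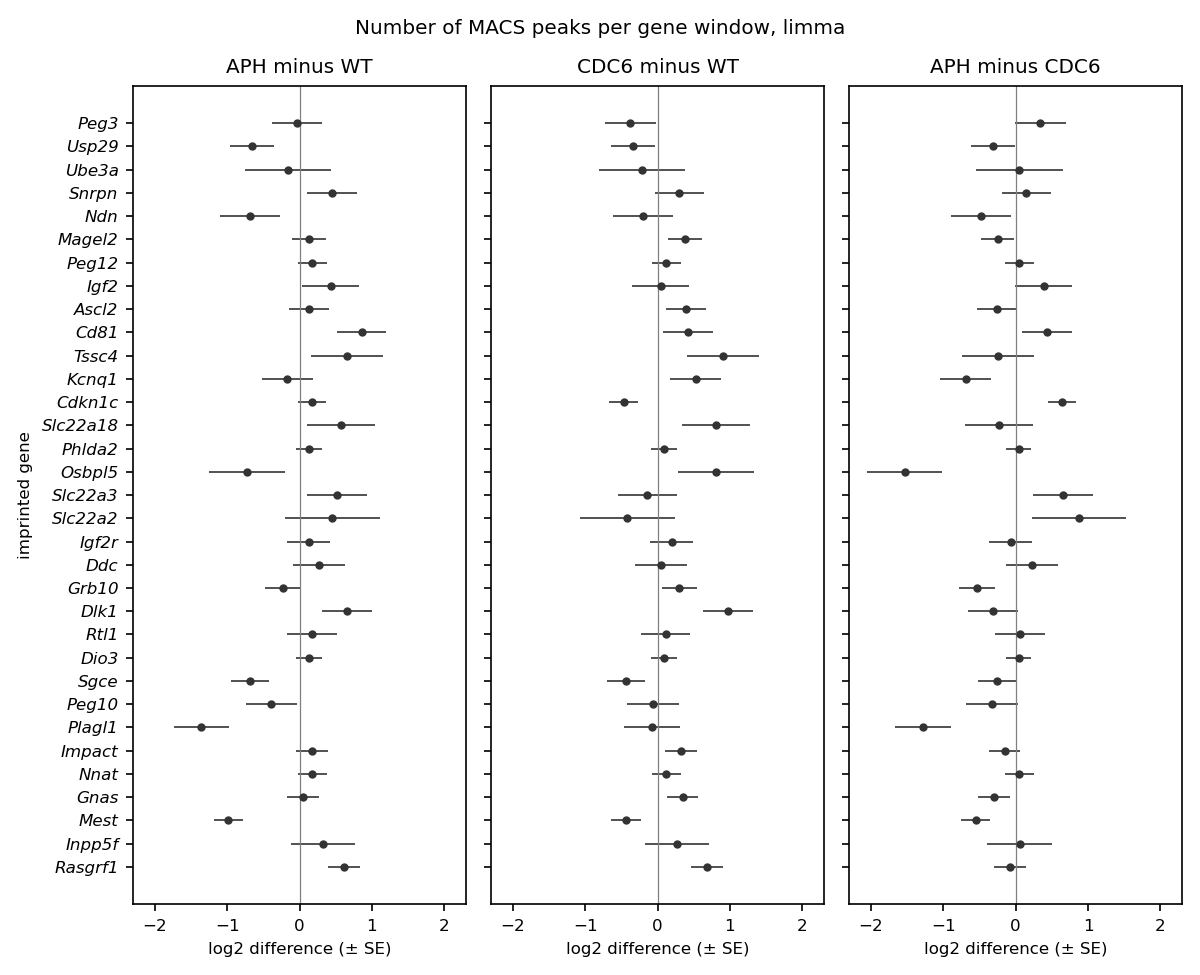
Log2 difference in the scaled number of MACS peaks per gene window (points, with the standard error from limma as bars) for the 33 imprinted genes tested, for APH minus WT (left), CDC6 minus WT (middle) and APH minus CDC6 (right), from 2 libraries per condition. None passed an adjusted p of 0.05, and the points lie between -1.54 (Osbpl5, APH minus CDC6) and 0.98 (Dlk1, CDC6 minus WT).

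The imprinted genes with the smallest p on each side are given with their scaled numbers of peaks. For Mest they were 1.06 and 1.11 in APH, 2.19 and 1.93 in CDC6, and 3.35 and 2.94 in WT. Its difference of APH minus WT was -0.99 ± 0.20 (SE, limma, adjusted p = 0.385). The additional WT peaks lay outside the gene body, since in the body alone the difference was 0.13. For Plagl1 they were 0.00 and 1.11 in APH, 2.19 and 2.90 in CDC6, and 2.51 and 2.94 in WT. Its APH minus WT difference was -1.36 ± 0.38 (SE, limma, adjusted p = 0.474), and APH minus CDC6 was -1.28 ± 0.38 (SE, limma, adjusted p = 0.429). Sgce had 2.13 and 1.11 in APH, 2.19 and 1.93 in CDC6, and 3.35 and 2.94 in WT, and its differences from WT were -0.69 in APH and -0.44 in CDC6 (limma, adjusted p = 0.612 and 0.651). Without APH 1 the Plagl1 differences were -0.82 from WT and -0.74 from CDC6, and without APH 2 the APH difference of Sgce was -0.41.

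On the other side, Rasgrf1 had 8.52 and 8.89 in APH, 8.77 and 9.67 in CDC6, and 5.86 and 4.90 in WT. Its difference was 0.61 ± 0.22 for APH minus WT and 0.68 ± 0.22 for CDC6 minus WT (SE, limma, adjusted p = 0.584 and 0.551). Dlk1 had 2.13 and 3.33 in APH, 4.39 and 2.90 in CDC6, and 0.84 and 1.96 in WT. It differed from WT by 0.66 in APH and 0.98 in CDC6 (limma, adjusted p = 0.672 and 0.555). Cd81 had 3.19 and 4.44 in APH, 2.19 and 2.90 in CDC6, and 2.51 and 0.98 in WT, and was 0.86 higher in APH than in WT (limma, adjusted p = 0.624). Tssc4 had 1.06 and 2.22 in APH, 2.19 and 1.93 in CDC6, and 1.68 and 0.00 in WT, where the low value of WT 2 set the difference of 0.90 between CDC6 and WT (limma, adjusted p = 0.634). None of these differences passed the threshold, and several rested on 1 library. Without WT 2 the difference of Cd81 was 0.44 and that of Tssc4 0.19, while without WT 1 that of Tssc4 was 1.58. The APH minus WT difference of Dlk1 was 0.31 without WT 1, 1.00 without WT 2 and 0.43 without APH 2, and its CDC6 minus WT difference was 0.63 without WT 1.

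Between the stress conditions, Osbpl5 had 1.06 and 1.11 in APH, 4.39 and 5.80 in CDC6, and 5.03 and 0.98 in WT. Its APH minus CDC6 difference was -1.54 ± 0.52 (SE, limma, adjusted p = 0.429), and the WT libraries matched 1 stress group each. Cdkn1c had 2.13 and 2.22 in APH, 1.10 and 0.97 in CDC6, and 1.68 and 1.96 in WT, which is 0.65 higher in APH than in CDC6 and 0.47 lower in CDC6 than in WT on the log2 scale (limma, adjusted p = 0.429 and 0.578). The numbers stand for 2 peaks in APH and WT and 1 in CDC6, where a single peak spanned both Cdkn1c regions, and the kilobases covered by peaks gave the opposite sign. Slc22a3 had 5.32 and 5.56 in APH, 3.29 and 2.90 in CDC6, and 5.86 and 1.96 in WT, and Slc22a2 had 2.13 and 1.11 in APH, 0.00 and 0.97 in CDC6, and 2.51 and 0.00 in WT. Their APH minus CDC6 differences were 0.65 and 0.87 (limma, adjusted p = 0.703 and 0.760). That of Slc22a2 was 0.39 without CDC6 1 and 1.36 without CDC6 2.

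The noncoding RNA genes of the same clusters were described alongside. Of 9 listed, 8 were in the RefSeq table, and 8 in APH, 7 in CDC6 and 4 in WT had an origin in the window. These are 100.0%, 87.5% and 50.0%, against 53.6%, 58.5% and 48.1% of all protein-coding genes. Their median window was 54.25 kb, against 27.3 kb. At gene ends the numbers were 2, 4 and 2 (25.0%, 50.0% and 25.0%, against 33.3%, 40.6% and 32.2%). H19, the maternally expressed RNA beside Igf2, had a gene-end origin in all 3 lists, with folds of 3.20 and 2.73 in APH, 3.14 and 3.48 in CDC6, and 3.08 and 2.41 in WT. Meg3, the maternally expressed RNA of the Dlk1 cluster, had 2 gene-end origins in CDC6 and none in APH or WT, although a MACS peak was present in every library, of fold 3.07 and 2.44 in APH, 3.16 and 3.63 in CDC6, and 3.37 and 2.13 in WT. Peg13 had a gene-end origin in CDC6 alone, with no peak in APH 1, 2.20 in APH 2, 2.78 and 3.61 in CDC6, and 2.32 and 2.08 in WT. Airn, the RNA that silences Igf2r, had 4 origins in its window in APH, 2 in CDC6 and 2 in WT, and none at its ends. The Airn window contains the Igf2r promoter region described above. Snhg14, whose window contains that of Snrpn, had 10, 10 and 5 origins in its window.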

How the data were processed

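Per the labels' protocols, denatured DNA was size-fractionated on a sucrose gradient and digested with lambda exonuclease, and the strands left were made double before library preparation. The submitters' processing notes name MACS2 2.0.10 beside bedtools 2.23.0, Picard 1.107, BWA 0.7.10, FastQC and SAMtools 0.1.19. Their roles and settings stay unstated. Each MACS list deposited by the authors gives per peak a score, the ratio (fold) over the shared control, the −log10 p-value and the −log10 q-value, with q-values up to 0.1. The deposited origin lists give 2 scores per region whose meaning is not stated, and how the libraries were combined is not stated either.

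Gene positions are those of RefSeq for GRCm38.p6. The 38 imprinted genes and the other gene lists were chosen with earlier results of these data known. An overlap was at least 1 bp, and ranks are percentiles by q-value within a library. Origins of the 3 lists were merged where they overlapped. Peaks per window, scaled to the mean library total, were tested in R 4.3.3 with limma 3.58.1 (a trend in eBayes, pseudocount 1, filter of a mean of at least 1 peak) over all 15512 genes with Benjamini-Hochberg adjustment. The fit held all 6 libraries without a block, and was tested on simulated data. Tables were made with Python 3.11.15. Full values are given for genes with a gene-end origin, genes without an origin and the 3 smallest p on each side of each contrast, and promoters for at most 8 genes plus 2 added after seeing values. Alternatives were the overlap rule, window and end widths, lists rebuilt from MACS peaks or cut to equal length, the pseudocount, filter, scaling, q-value, covered length, second lists, the trend, a replicate block and each library left out. Using the MACS peaks of a single library in place of a condition list was chosen after seeing the data.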

Additional observations from a re-analysis of the deposited data

How the results depend on the processing

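The numbers of imprinted genes with an origin in the window or at a gene end stayed within 1.5 times their value in every alternative. These included MACS peaks of a single library in place of a list. With 38 genes in all, the numbers for windows could not pass this limit upward. At gene ends the peaks of APH 2 gave 27 genes against 18 in the APH list, which is at the limit. The share of all genes rose too, from 33.3% to 52.4%. The number of genes called by limma was 0 in each contrast, and moved with the following choices. Without scaling to the library total it was 384 for APH minus WT, 400 for CDC6 minus WT and 350 for APH minus CDC6, and with the gene body alone 4, 9 and 11. With 1 library left out it ranged from 0 to 183, from 0 to 270 and from 0 to 215, and every number above 0 came from leaving out WT 1 or WT 2. A condition left with 1 library was taken to have the spread of the others. Replicate numbers did not pair the libraries, since the deviations of the libraries numbered 1 and 2 correlated between groups at -0.06 for APH and CDC6, -0.15 for APH and WT and 0.01 for CDC6 and WT, and the replicate block left 0 calls in each contrast. Without scaling, imprinted genes passed in 3 places, Mest at -1.16 for APH minus WT (limma, adjusted p = 0.0488) and Cdkn1c at -0.59 for CDC6 minus WT (limma, adjusted p = 0.00428) and 0.59 for APH minus CDC6 (limma, adjusted p = 0.00459), where whole numbers gave some genes no spread within groups. Signs turned for these named genes. By kilobases covered, APH minus WT was -0.14 for Cd81, -0.65 for Dlk1 and 0.18 for Sgce, CDC6 minus WT 0.75 for Cdkn1c and 0.62 for Sgce, and APH minus CDC6 -0.88 for Cdkn1c. With the second lists as labelled, APH minus WT was -0.085 for Rasgrf1, -0.13 for Dlk1 and 0.31 for Plagl1, CDC6 minus WT 0.26 for Cdkn1c, 0.0437 for Mest and 0.0752 for Sgce, and APH minus CDC6 -1.07 for Slc22a3 and 0.45 for Plagl1. With the gene body alone, Mest was at 0.13 for APH minus WT, 0.0906 for CDC6 minus WT and 0.04 for APH minus CDC6, and CDC6 minus WT was 0.0906 for Cdkn1c and 0.12 for Sgce. The cause was not tested, apart from Mest, whose other peaks lie outside the body. The unknown read depth and the few peaks per window limit all of these values.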

Other observations

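The factors that maintain imprints and DNA methylation are not imprinted genes, and were described in the same way. Of 14, 10 had an origin in the window in APH (71.4%, against 53.6% of all genes), 9 in CDC6 (64.3%, against 58.5%) and 8 in WT (57.1%, against 48.1%). At a gene end 5 had one in each list (35.7%, against 33.3%, 40.6% and 32.2% of all genes in APH, CDC6 and WT). Dnmt3b, a de novo DNA methyltransferase, had gene-end folds of 7.48 and 7.36 in APH, 6.23 and 6.60 in CDC6, and 6.29 and 4.69 in WT. Tet2, which oxidises methylated cytosine, had 8.15 and 8.98 in APH, 8.41 and 7.33 in CDC6, and 7.79 and 5.32 in WT. Trim28, the corepressor that imprint-binding zinc finger proteins recruit, had 5.81 and 6.31 in APH, 5.31 and 6.90 in CDC6, and 6.08 and 3.81 in WT. Ctcf and Kdm1b, an insulator protein and a histone demethylase of the oocyte, also had a gene-end origin in all 3 lists. Zfp57, a zinc finger protein that keeps imprints methylated, had no origin, and a MACS peak at its ends in WT 1 alone, of fold 4.65. Dppa3 had no peak at its ends in any library.

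The hosts and neighbours of 4 imprinted genes were described too. Herc3, the host of Nap1l5, had gene-end origins in all 3 lists with folds of 3.74 and 4.15 in APH, 4.03 and 4.53 in CDC6, and 8.13 and 3.20 in WT. Copg2, the neighbour of Mest, had 7.39 and 9.98 in APH, 8.05 and 9.08 in CDC6, and 8.12 and 5.27 in WT. Blcap, the host of Nnat, had a gene-end origin in all 3 lists, and Commd1, the host of Zrsr1, had none at its ends. In windows 3 of these 4 genes had an origin in APH, against 53.6% of all protein-coding genes. All 4 had one in CDC6 and in WT, against 58.5% and 48.1%.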
